A study of Homo sapiens with 58 samples.

Results

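A pair of presomitic preparations of one human cell line was compared across all genes. The first is the opening of a course of presomitic mesoderm sampled at 30, 60 and 90 min, with 2 libraries each, and the second is Day2 of a daily differentiation series, with 3 libraries. The 9 libraries were chosen by their labels out of 58 in the series, and no measured value entered the choice. All come from H1, an established line of human embryonic stem cells labelled wild type, with no transgene or edit named, and hold total RNA from lysates of cultures in multiwell plates, made into libraries by LM-seq. Day2 followed 24 h in 100 ng/mL activin A and 3 uM CHIR99021 on an E8 base (Day1, mesendoderm) and a further 24 h in 2 uM A83-01, 3 uM CHIR99021, 100 ng/mL FGF2 and 100 ng/mL NOGGIN on an E6 base. CHIR99021 inhibits GSK3 and so activates Wnt signalling, A83-01 inhibits receptors for TGF-beta and activin, and NOGGIN binds BMP ligands. The labels call the course libraries presomitic mesoderm and give neither their medium nor the event that 0 min marks. They name 1 cell line, so every value describes that line in culture.

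Presomitic mesoderm is the tissue behind the last formed somite of the embryo. Wnt and FGF signals keep it immature at its tail end, TBX6 and MSGN1 are transcription factors that define it, and a Notch-driven oscillator of HES7, LFNG and related genes paces the formation of somites at its front. In culture it is made from mesendoderm by activating Wnt and FGF while BMP and TGF-beta signals are blocked, and neural tissue arises from a closely related posterior progenitor.

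Libraries held 3.28 to 6.42 M expected counts at course start and 3.16 to 3.60 M at Day2 (M, mega). Levels are given as CPM, counts scaled to a common library size, and in a library with no count of a gene the limit of 3 counts lay at 0.468 to 0.915 CPM at course start and 0.833 to 0.949 CPM at Day2. The Day2 libraries stood apart from one another. They correlated at r 0.877 to 0.897 across genes on log2 CPM, against 0.954 to 0.976 for the 3 pairs at one course time, and the third Day2 library lay nearest to the course start, at a mean distance of 0.807 log2 units against 1.08 for the first. Nothing in the labels ties a replicate to a culture of its own. The p-values therefore cover the spread among these libraries alone, and that spread may be technical. The 2 groups are also 2 experiments, and nothing in the design links them by a shared sample, so a difference of preparation and a difference of cell state cannot be told apart.

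How far the preparations agreed was first measured as a distance, the root mean square difference in log2 CPM over 6778 genes of at least 20 CPM. Course start and Day2 lay 0.949 ± 0.126 apart (SD over 18 library pairs). In the daily series, Day1 lay 0.791 ± 0.0137 from Day0, Day2 lay 0.940 ± 0.0927 from Day1 and Day3 lay 0.976 ± 0.129 from Day2 (SD over 9 pairs each). The gap between the 2 presomitic preparations was thus within the spread of both daily steps that involve Day2, and its mean was above every pair of Day1 with Day0. Course start lay 0.886 ± 0.0421 from Day1, 0.904 ± 0.0613 from Day3 and 1.04 ± 0.0220 from Day0. Library pairs within Day2 lay 0.699 ± 0.0703 apart and pairs at one course time 0.313 ± 0.0724 (SD over 3 pairs each). With the mean squared distance within groups taken off, course start was 0.786 from Day2, 0.816 from Day1, 0.782 from Day3 and 0.968 from Day0. On the other measure used, the correlation of group means across the same genes, course start was closest to Day2 at r 0.864, against 0.848 for Day3, 0.844 for Day1 and 0.789 for Day0. The place of Day2 among the days thus differed between the measures. By raw distance, which includes the wide spread within Day2, it was farther than Day1 and Day3, by net distance it was close to Day3 and nearer than Day1, and by correlation of means it was the nearest day. None of these margins was tested.

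**Figure D1:**
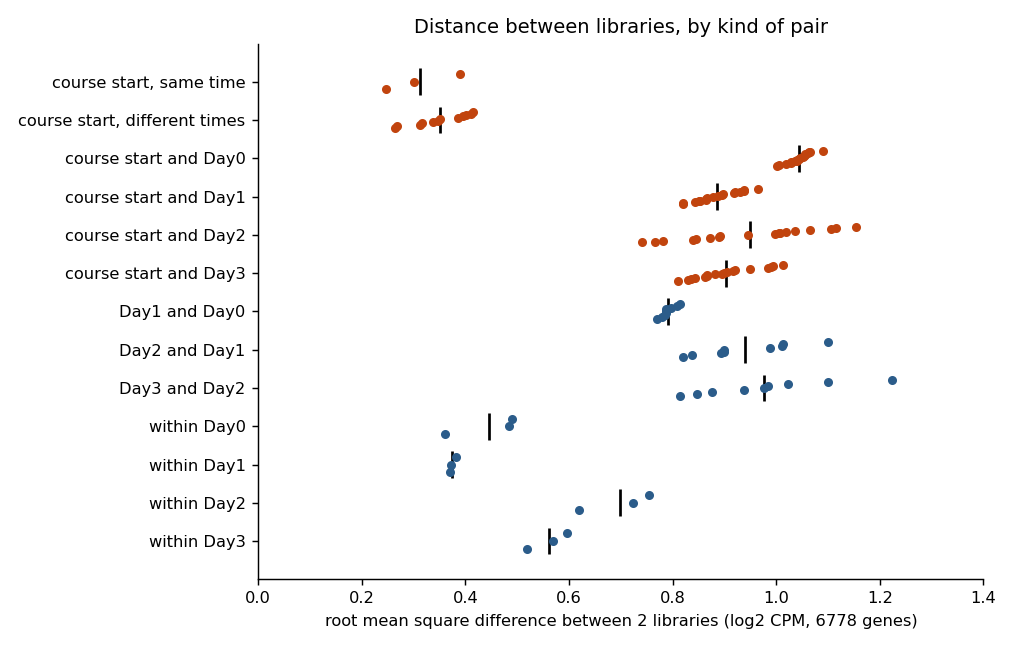
Each point is 1 pair of libraries and each bar the mean of its kind of pair, with the root mean square log2 CPM difference on the x axis. Pairs of a course-start and a Day2 library spread from 0.741 to 1.15, overlapping the pairs of Day2 with Day1 and of Day3 with Day2, while pairs within the course start reach at most 0.415.

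Gene by gene, 12155 genes passed the filter on low counts and 2785 were called (22.9%), at an adjusted p under 0.05 in edgeR's quasi-likelihood test with Benjamini-Hochberg adjustment and an absolute log2 difference of at least 1. Of these, 1468 were higher at course start (12.1%) and 1317 lower (10.8%), and the median log2 difference over all genes tested was 0.07. Scaled by total counts in place of TMM factors, 71.6% of the calls were higher in place of 52.7%, and the median over all genes was 0.30. Without the fold limit, 2455 genes were higher (20.2%) and 2584 lower (21.3%). At single times against Day2, 2550 genes were called at 30 min (21%), 2219 at 60 min (18.3%) and 1738 at 90 min (14.3%), and 815 genes were called higher and 541 lower at all 3 times. The libraries of the 2 groups did not overlap for 2530 genes that were higher (20.8%) and 2237 that were lower (18.4%). In a fit of 18 libraries, 23.5% of 13337 genes were called between course start and Day2, 19.4% between course start and Day0, 15.2% between course start and Day1 and 14.2% between course start and Day3; these contrasts share the course libraries. The same fit called 6.59% between Day1 and Day0, 14.1% between Day2 and Day1 and 15.8% between Day3 and Day2. The course contrasts set 6 libraries against 3 and the daily steps 3 against 3, so these shares do not rank the sizes of the differences.

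Calls followed the composition of the transcript. Genes were cut into 10 bins by GC content and by length. In the bin of highest GC content, 35.9% were called higher and 1.99% lower, with a median log2 difference of 1.01. In the bin of lowest GC content, 1.32% were higher and 18.6% lower, with a median of -0.41. Short transcripts leaned the same way, with 22.5% higher and 7.98% lower in the shortest bin, against 4.96% higher and 19.1% lower in the longest. Measured as a slope for every library against the mean of the 58, the course-start libraries lay at 0.0596 to 0.15 log2 per 10% of GC content. The rest of the course lay at -0.1 to 0.162. The Day2 libraries lay at -0.419 to -0.264, close to Day0 and Day1, and Day3 lay at -0.166 to 0.000435. All course libraries thus lay above Day0, Day1 and Day2, while the Day3 range overlapped that of the later course. The slope therefore differed within the daily series as well as between the experiments. An alternative fit, added after the data were seen, removed a smooth trend on GC content and length from each library. It called 1177 genes higher (9.68%) and 973 lower (8%), kept 824 of the 1468 higher and 771 of the 1317 lower genes, and brought the distance between the preparations to 0.885. Differences from Day2 that were called are therefore given below with their value under these offsets, where a fitted value is printed. The offsets would also remove a change of cell state that followed GC content, and the 2 cannot be told apart here.

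**Figure D2:**
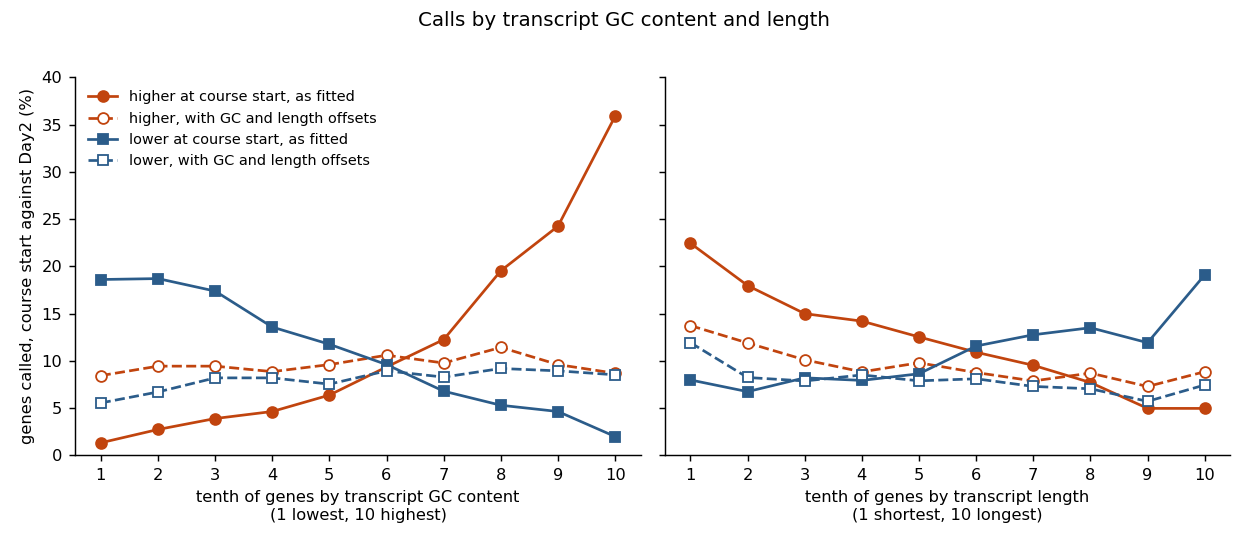
The share of genes called (y axis, percent) by bin of transcript GC content, 10 bins each, (left) and length (right), as fitted (filled symbols) and with GC and length offsets (open symbols). As fitted, the share higher at course start climbs from 1.32% to 35.9% with GC content; with offsets it stays between 8.44% and 11.4%.

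The places of Day2 and of the course start among the daily groups were counted for the called genes. Among the 1468 higher genes, Day2 had the lowest mean of the 5 groups (course start, Day0, Day1, Day2 and Day3) for 1040 (70.8%), against 26.3% of all genes tested, and among the 1317 lower genes it had the highest mean for 1030 (78.2%), against 23.7% of all tested. Course start was the highest of the 5 for 960 of the higher genes (65.4%, against 24.1% of all tested) and the lowest for 909 of the lower ones (69%, against 21% of all tested). The choice of called genes fixes part of these shares. A gene called higher has Day2 below course start by that choice, and a gene called lower has it above. The shares over all genes lack this condition and are no matched baseline. Whether Day2 stood apart beyond this choice was not tested. In 310 of the higher and 167 of the lower genes, every course-start library lay outside the range of all 12 daily libraries, as it did, called or not, above that range in 4.06% and below it in 2.38% of all genes tested. The differences were also set beside progress along the daily series. A fit of the daily libraries called 910 genes higher at Day3 than at Day1 (7.13%) and 847 lower (6.64%). Of the 849 higher ones tested here, 168 were higher (19.8%) and 79 lower (9.31%) at course start. Of the 768 lower ones, 98 were higher (12.8%) and 45 lower (5.86%). Among the 10334 genes called neither way, 11.1% were higher and 11.4% lower, beside 12.1% and 10.8% of all genes tested. Both daily sets thus held more higher than lower genes, and alignment with the daily series was not tested. For 557 of the higher and 554 of the lower genes, all 46 libraries of the whole course, up to 690 min, lay on the same side of the 3 Day2 libraries, as they did above Day2 in 6.57% and below it in 7.66% of all genes tested.

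Both preparations carried the defining presomitic factors. TBX6, a T-box factor needed to make paraxial mesoderm, had 42.5 to 68.6 CPM at course start (median 64.3), against 13.3, 11.2 and 19.9 CPM at Day2. The groups did not overlap, and TBX6 was 2.02 ± 0.23 log2 units (SE) higher at course start (adjusted p = 3.0e-05, edgeR; 1.47 with offsets, adjusted p = 0.00044). In bulk samples, fewer cells of a type and less RNA per cell cannot be told apart. MSGN1, a transcription factor of the same programme, had 27.8 to 45.5 CPM at course start (median 39.0), against 12.0, 27.3 and 56.6 CPM at Day2. Its Day2 libraries spanned the course range, and the log2 difference of 0.26 ± 0.35 did not pass (adjusted p = 0.58; -0.74 with offsets, adjusted p = 0.12). Elsewhere in the daily series both were near the floor, with group means of 0, 1.81 and 0.505 CPM for TBX6 and 0.115, 0.453 and 0.216 CPM for MSGN1 at Day0, Day1 and Day3. TBXT, listed under its older symbol T and expressed in the primitive streak and tail bud, had 77.5 to 126 CPM at course start (median 106), against 41.5, 62.2 and 81.2 CPM at Day2. It passed the p threshold at a log2 difference of 0.76 ± 0.20 (adjusted p = 0.0079) but not the fold limit, which it passed without the third Day2 library (1.01), and not the p threshold with offsets (0.31, adjusted p = 0.21).

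Of the 22 genes listed for presomitic mesoderm, 21 were tested. Of these, 10 were higher and 3 lower, beside 12.1% and 10.8% of all genes tested. The median log2 difference was 1.13 against 0.07 over all genes. With offsets 7 were higher and 4 lower, and the median was 0.62 against 0.12. RSPO3, a secreted amplifier of Wnt signalling, had 530 to 689 CPM at course start (median 598), against 145, 239 and 347 CPM at Day2. It was 1.31 ± 0.21 log2 units higher without overlap (adjusted p = 0.0003; 1.55 with offsets). APLNR, the apelin receptor of nascent mesoderm, had 532 to 690 CPM at course start (median 653), against 140, 196 and 183 CPM at Day2. Its log2 difference was 1.88 ± 0.14 (adjusted p = 3.8e-06; 1.61 with offsets). WNT3A, the tail bud Wnt ligand, was higher by 1.70 ± 0.57 (adjusted p = 0.03) but not called with offsets (0.62, adjusted p = 0.40). The 3 lower genes were HES1, PCDH8 and CYP26A1. PCDH8, the protocadherin of the forming somite border, had 12.4 to 27 CPM at course start (median 14.5), against 22.4, 52.2 and 28.4 CPM at Day2, with overlap and a log2 difference of -1.07 ± 0.30 (adjusted p = 0.012; -1.38 with offsets).

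**Figure D3:**
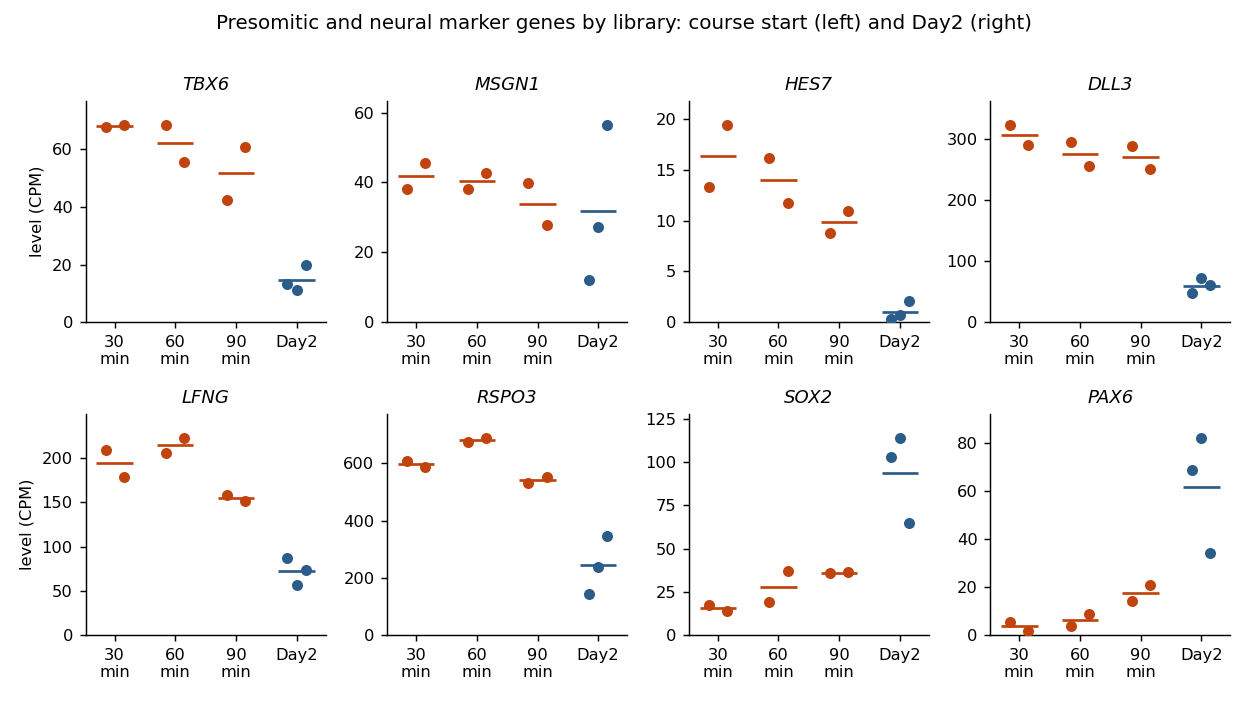
Level in CPM (y axis, from 0) of 8 marker genes in each library; points are libraries and bars group means, with 30, 60 and 90 min of the course in red and Day2 in blue at the right. TBX6, HES7, DLL3, LFNG and RSPO3 lie higher in every course-start library than in any Day2 library, SOX2 and PAX6 lower, and MSGN1 overlaps.

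HES7 and DLL3, both of the Notch pathway, had the widest gaps among the called presomitic genes. In this pathway, DLL1 and DLL3 are ligand-type proteins, of which DLL3 acts within the cell, NOTCH1 to NOTCH3 are receptors, LFNG and RFNG are enzymes that add sugars to the receptors, and HES and HEY genes encode the repressors that the activated receptor switches on. HES7, the repressor at the core of the oscillator, had 8.80 to 19.4 CPM at course start (median 12.5), against 0.324, 0.720 and 2.07 CPM at Day2. The first and second Day2 values lie under the floor of 3 counts, and the 3 libraries held 10 counts together. HES7 was 3.58 ± 0.57 log2 units higher (adjusted p = 0.00032; 2.71 with offsets, adjusted p = 0.0028). DLL3 had 250 to 323 CPM at course start (median 289), against 48.0, 71.6 and 60.1 CPM at Day2. It was 2.24 ± 0.15 log2 units higher with no overlap (adjusted p = 3e-06; 1.26 with offsets). LFNG had 152 to 223 CPM at course start (median 192), against 87.3, 56.5 and 73.8 CPM at Day2. Its log2 difference of 1.36 ± 0.15 was called (adjusted p = 2.7e-05), but with offsets it was 0.54 and not called. DLL1 had 110 to 226 CPM at course start (median 133), against 38.6, 60.8 and 80.3 CPM at Day2. It was called at 1.33 ± 0.20 (adjusted p = 0.00018) and not with offsets (0.87).

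Across the 16 tested of 21 listed Notch genes, 8 were higher and 2 lower, beside 12.1% and 10.8% of all genes tested. The median log2 difference was 1.08. With offsets 5 stayed higher (NOTCH1, DLL3, HES7, HEYL and RFNG), 3 were lower, and the median was 0.67. NOTCH1 had 138 to 174 CPM at course start (median 153), against 33.7, 40.3 and 47.4 CPM at Day2, a log2 difference of 1.92 ± 0.15 without overlap (adjusted p = 4.7e-06; 1.36 with offsets). NOTCH2 showed no such gap, with 45.7 to 65.3 CPM at course start (median 51.8), against 44.4, 64.4 and 61.3 CPM at Day2 (0.18 with offsets, not called). RFNG, with no count in the 3 Day2 libraries and 1.20 to 10.9 CPM at course start, was at least 16.9-fold higher, computed against a floor of 3 counts over the Day2 group.

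The downstream repressors moved in opposite directions. HEYL had 18.4 to 28.0 CPM at course start (median 23.7), against 5.52, 0.36 and 5.04 CPM at Day2. It was 2.62 ± 0.48 log2 units higher (adjusted p = 0.00089; 2.12 with offsets). HES1 had 2.10 to 7.34 CPM at course start (median 5.97), against 15.2, 24.8 and 14.5 CPM at Day2, and was lower, at -1.87 ± 0.47 (adjusted p = 0.0067; -1.93 with offsets). Neither pair of groups overlapped. HEY1, with a log2 difference of -1.41 ± 0.44, was also lower (adjusted p = 0.021; -1.32 with offsets). HEYL and HES1 are shown here because both are classic targets of RBPJ, the DNA-binding partner of the activated receptor, and differ in direction. The 250 bases before each start are given 5′ to 3′ on the gene's strand (RefSeq, GRCh38.p14, which is not the build of the count tables), with TGGGAA, the core of RBPJ's motif, in capitals on either strand. They are chr1:39639644-39639893 on the minus strand for HEYL and chr3:194135898-194136147 on the plus strand for HES1.
HEYL: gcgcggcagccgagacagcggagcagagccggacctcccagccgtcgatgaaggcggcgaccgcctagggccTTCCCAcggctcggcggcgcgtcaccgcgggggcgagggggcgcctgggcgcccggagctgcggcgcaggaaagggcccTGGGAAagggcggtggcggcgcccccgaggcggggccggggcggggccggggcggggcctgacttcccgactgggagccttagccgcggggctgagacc
HES1: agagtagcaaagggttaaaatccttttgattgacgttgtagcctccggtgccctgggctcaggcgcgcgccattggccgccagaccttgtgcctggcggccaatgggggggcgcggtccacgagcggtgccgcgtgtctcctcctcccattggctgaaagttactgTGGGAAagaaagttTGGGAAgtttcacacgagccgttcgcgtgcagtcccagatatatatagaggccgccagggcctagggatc
Each holds 2 matches, 178 and 99 bases before the start in HEYL and 84 and 70 bases before it in HES1, while 20.8% of 35116 promoters of this length hold at least 1. A match is a description of the sequence, and the windows show the same short motif in a gene that was higher and in one that was lower.

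Genes of axial position were mostly higher at course start. CDX factors activate posterior HOX genes in the tail bud, and the HOX clusters then assign position along the body, roughly in the order of their genes. CDX1 had 116 to 154 CPM at course start (median 128), against 22.7, 42.5 and 37.6 CPM at Day2. It was 1.94 ± 0.19 log2 units higher (adjusted p = 1.0e-05; 1.10 with offsets). CDX2 had 56.9 to 102 CPM at course start (median 76.1), against 22.1, 36.3 and 20.7 CPM at Day2, and was 1.55 ± 0.22 higher (adjusted p = 0.00014; 1.25 with offsets). Neither overlapped. CDX4 did not pass, with a log2 difference of 0.69 ± 0.73 (0.74 with offsets). Of 39 HOX genes, 22 were too low to test. Of the 17 tested, 9 were higher and 1 lower, beside 12.1% and 10.8% of all genes tested. The median log2 difference was 1.45. With offsets 7 were higher and 1 lower (median 0.96). Among the 9 were HOXB1, HOXB2, HOXB5, HOXB6, HOXB9, HOXC4, HOXC5 and HOXD1, and HOXB9 and HOXC5 lost the call with offsets.

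HOXB5 had 18.6 to 36.4 CPM at course start (median 28.3), against 0.973, 8.99 and 6.52 CPM at Day2. Its log2 difference was 2.37 ± 0.45 (adjusted p = 0.0012; 2.09 with offsets). HOXB1 was higher by 2.14 ± 0.47 (adjusted p = 0.0031; 1.63 with offsets). The single lower gene, HOXA2, which patterns the hindbrain, had 2.00 to 5.08 CPM at course start (median 4.75), against 15.2, 20.1 and 13.6 CPM at Day2. Its difference was -2.11 ± 0.39 (adjusted p = 0.00092; -2.10 with offsets). Neighbouring HOX genes can overlap and share sequence, and the counting program is not given, so the split of reads among them is uncertain.

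Retinoic acid genes were called in both directions. Retinoic acid is made in somites by ALDH1A2, opposes FGF, and induces RARB and CYP26A1, which in turn reports and degrades it. ALDH1A2 had 229 to 301 CPM at course start (median 287), against 55.5, 65.8 and 168 CPM at Day2, and was 1.53 ± 0.28 log2 units higher with no overlap (adjusted p = 0.00094; 1.54 with offsets). STRA6, a receptor that takes up retinol, was 1.72 ± 0.26 higher (adjusted p = 0.0002; 1.08 with offsets). RARB, a receptor and known target of retinoic acid, had 0 to 1.05 CPM at course start (median 0.436), against 6.81, 8.99 and 5.33 CPM at Day2. It was lower, at -3.90 ± 0.90 log2 units (adjusted p = 0.0039; -3.61 with offsets). CRABP1, a cellular binding protein for retinoic acid, had 13.7 to 47.8 CPM at course start (median 25.2), against 103, 167 and 91.6 CPM at Day2. Its difference was -2.26 ± 0.24 without overlap (adjusted p = 1.7e-05; -2.91 with offsets). CYP26A1 was also lower, at -2.04 ± 0.68 (adjusted p = 0.028; -2.08 with offsets). ALDH1A1 and RDH10, which encode enzymes on the way to retinoic acid, were lower as well, at -2.31 ± 0.86 (adjusted p = 0.046) and -1.09 ± 0.27 (adjusted p = 0.0062), and neither was called with offsets (-2.05 and -0.97). In all, 3 of 12 tested genes were higher and 5 lower (median -0.98), with 3 and 4 under the offsets. The shares as fitted were 12.1% higher and 10.8% lower over all genes tested.

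Of 21 listed genes of the somite, 11 were too low to test in these libraries. MESP2 and RIPPLY2, which set the somite border, and MEOX1, a marker of the somite, were among them. RIPPLY2 had 0 to 2.42 CPM and MEOX1 1.20 to 3.36 CPM at course start, and the Day2 libraries held 0 and 1 counts of them in all. TCF15, a somite factor that averaged 308 CPM at Day3, had 3.57 to 10.3 CPM at course start (median 4.83), against 1.30, 6.12 and 0 CPM at Day2, and did not pass (1.13 ± 0.88, adjusted p = 0.32; 0.12 with offsets), though it did without the second Day2 library (3.02). Of the 10 somite genes that could be tested, 2 were higher and 3 lower (median -0.20), the 2 being ALDH1A2 and FOXC1. Among all genes tested, 12.1% were higher and 10.8% lower. FOXC1, a forkhead factor of paraxial mesoderm, had 151 to 340 CPM at course start (median 219), against 67.5, 56.5 and 69.6 CPM at Day2. It was 1.79 ± 0.16 log2 units higher (adjusted p = 6.2e-06; 1.48 with offsets), with its highest values at 30 min. PAX3, which marks the dorsal somite as well as the dorsal neural tube, had 1.72 to 7.04 CPM at course start (median 3.98), against 18.5, 19.8 and 25.2 CPM at Day2. It was lower, at -2.45 ± 0.37 (adjusted p = 0.0002; -2.44 with offsets). EFNB2, an ephrin of the somite border, was lower, at -1.36 ± 0.15 (adjusted p = 1.8e-05; -1.26 with offsets).

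Markers of the stages before Day2 formed short lists, to be read beside the 22.9% called over all genes tested. POU5F1, the pluripotency factor OCT4, had 185 to 211 CPM at course start (median 206), against 182, 181 and 204 CPM at Day2. The difference was 0.08 ± 0.12 (adjusted p = 0.59; 0.08 with offsets), while its mean was 1061 CPM at Day0; 38% of its 25-base words occur in other genes, so its counts are uncertain. Of 13 tested pluripotency genes none was higher and 2 were lower (median -0.15), and the count was the same with offsets. These were USP44 and SOX2, of which SOX2 is also a neural progenitor factor. Among 9 mesendoderm genes, APLNR was higher and EOMES lower (median 0.61). EOMES, which averaged 358 CPM at Day1, had 0.587 to 4.15 CPM at course start (median 1.84), against 18.5, 10.8 and 1.19 CPM at Day2, and its call at -2.19 ± 0.78 (adjusted p = 0.038; -2.30 with offsets) was lost without the first or the second Day2 library, and also without the first library of 30, 60 or 90 min or the second of 60 min. CER1, NODAL and LEFTY2 were too low to test.

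Markers of endoderm, blood and vessels, and other mesoderm left only 2 to 6 tested genes a list. These are too few to set against the 22.9% called over all genes. None of the 2 tested endoderm genes and of the 3 tested endothelial and blood genes was called, with SOX17, FOXA2, PECAM1 and CDH5 among those too low to test. Of 6 lateral and cardiac mesoderm genes 1 was higher, BMP4, which encodes a BMP ligand. BMP4 had 20 to 64.9 CPM at course start (median 51.7), against 21.7, 3.24 and 11 CPM at Day2, with overlap (1.83 ± 0.39, adjusted p = 0.0026; 1.57 with offsets). OSR1, a factor of intermediate and lateral mesoderm, had 4.60 to 10.3 CPM at course start and no count at Day2, and was at least 23.9-fold higher against a floor of 3 counts over the Day2 group. WT1, a factor of the kidney-forming mesoderm, was lower, with 0.143 to 4.21 CPM at course start (median 0.694), against 7.46, 1.08 and 7.70 CPM at Day2, with overlap (-2.46 ± 0.92, adjusted p = 0.047; -2.64 with offsets). The WT1 call was lost with the 6 course libraries as 1 group (-1.89, adjusted p = 0.11, edgeR) and when scaled by total counts. It was also lost with a replicate block, in the fit of all 58 libraries and in limma. Leaving out Day2 library 1 or 3, or any course library but library 2 of 60 min, removed it too. OSR1 and WT1 were the calls among 4 tested intermediate mesoderm genes (median -0.44). Of the sclerotome and myotome genes, 3 were tested and none called.

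Neural genes formed the most one-sided group among the lists for cell types. Of 17 listed, 14 were tested. None was higher and 10 were lower at course start, beside 12.1% higher and 10.8% lower of all genes tested. The median log2 difference was -2.29. With offsets 12 were lower and the median was -2.11. PAX6, a factor of neural progenitors, had 2.00 to 20.8 CPM at course start (median 7.29), against 68.8, 82.0 and 34.4 CPM at Day2. It was lower, at -3.05 ± 0.35 log2 units (adjusted p = 2.7e-05; -2.55 with offsets). SOX2, listed with the pluripotency genes and not among these 14, had 13.9 to 37.0 CPM at course start (median 27.7). Its Day2 levels were 103, 114 and 64.6 CPM, and it was lower at course start, at -1.90 ± 0.23 (adjusted p = 3.5e-05, edgeR, and -1.95 with offsets). Both were without overlap, and every course library lay under the lowest Day2 library.

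Further members of the neural list were lower. MAP2, a microtubule protein of neurons, had 15.3 to 43.4 CPM at course start (median 27.5), against 338, 210 and 143 CPM at Day2. Its log2 difference was -3.06 ± 0.26 (adjusted p = 5.8e-06; -2.51 with offsets). STMN2, a neuronal regulator of microtubules, had 44.5 to 154 CPM at course start (median 86.7), against 635, 512 and 344 CPM at Day2, a difference of -2.49 ± 0.25 (adjusted p = 1.2e-05; -2.22 with offsets). DCX, carried by migrating neurons, had 7.01 to 25 CPM at course start (median 17.5), against 110, 123 and 62.2 CPM at Day2. It was lower, at -2.60 ± 0.30 (adjusted p = 2.7e-05; -2.07 with offsets). SOX1, SOX3, ELAVL3, ELAVL4, ZIC1 and POU3F2 made up the rest of the 10. TUBB3, a neuronal tubulin, passed the p threshold but not the fold limit (-0.80 ± 0.14, adjusted p = 0.00053) and was called with offsets (-1.51); 21.2% of its 25-base words occur in other genes. NES, an intermediate filament of progenitors, did not pass (0.50 ± 0.24, adjusted p = 0.11; 0.10 with offsets), with 890 to 1777 CPM at course start (median 986), against 446, 766 and 1103 CPM at Day2.

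As a mean of log2(CPM + 1) over the 14 neural genes, course start lay at 3.57 to 4.59 and Day2 at 5.67 to 6.02. Their summed level overlapped, at 1324 to 2307 CPM at course start against 2142 to 2202 CPM at Day2. The overlap came from 1 library, the second of 60 min, at 2307 CPM. The other course libraries lay at 1324 to 1446 CPM, below every Day2 library. In these sums NES alone holds 890 to 1777 CPM at course start and 446 to 1103 CPM at Day2. OLIG2 and HES5 were among those too low to test. The median difference from Day2 was -2.78 at 30 min, -2.34 at 60 min and -1.75 at 90 min, and none of the 14 passed the test among the 3 times. STMN2 averaged 92.2, 194, 504 and 269 CPM at Day0, Day1, Day2 and Day3, against 96.9 CPM at course start.

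**Figure D4:**
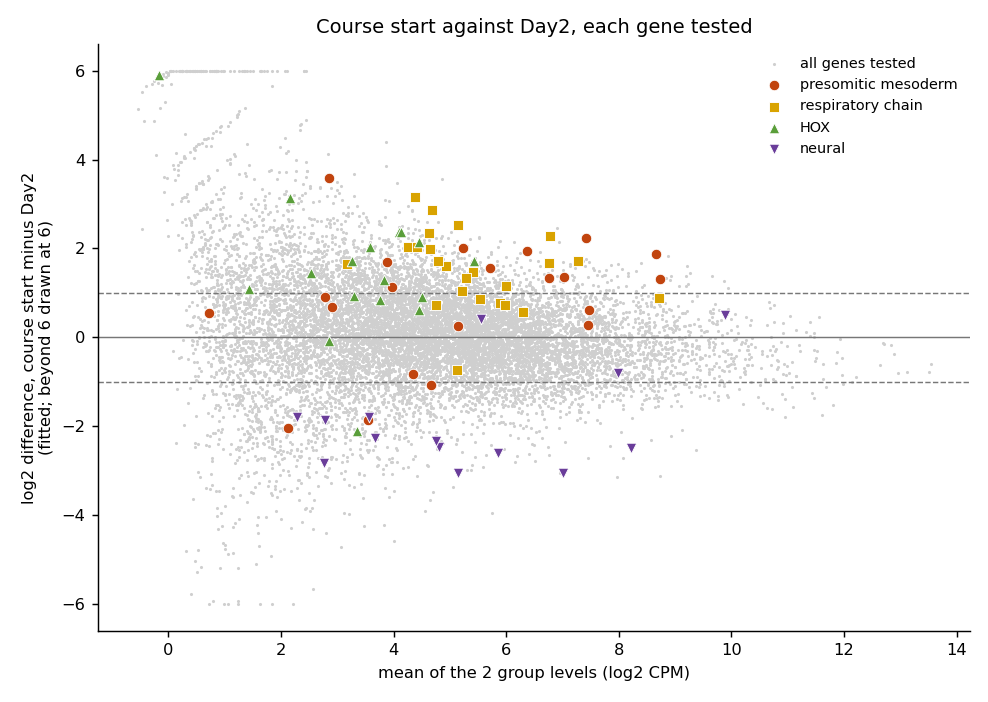
Log2 difference, course start minus Day2 (y axis), against the mean of the 2 group levels in log2 CPM (x axis) for each of 12155 genes, with 4 gene lists coloured; dashed lines mark a log2 difference of 1 either way, and values beyond 6 are drawn at 6. Respiratory chain, presomitic and HOX genes lie mainly above 0 and neural genes mainly below, with medians of 1.62, 1.13, 1.45 and -2.29.

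Among genes of higher level, the widest gaps lay outside the presomitic list. Among called genes of at least 20 CPM whose groups did not overlap, the 12 largest rises were NCKAP5L, ALDH16A1, PMF1, TAC1, COX8A, HOMER3, C17orf89, GYPC, COX6A1, SMN2, SLC25A29 and SNX22, at log2 differences of 2.82 to 4.39. NCKAP5L, which encodes a microtubule-binding protein, had 18.5 to 34.9 CPM at course start (median 28.2), against 0, 0.720 and 2.96 CPM at Day2. It was 4.39 ± 0.56 log2 units higher (adjusted p = 6.2e-05; 3.54 with offsets). Its means of 11, 9.24 and 16.6 CPM at Day0, Day1 and Day3 put Day2 at the bottom of the daily series. TAC1, the precursor of substance P, had 20.2 to 41.0 CPM at course start (median 30.3), against 0, 1.44 and 6.52 CPM at Day2 (3.46 ± 0.61, adjusted p = 0.00069; 3.64 with offsets). Its daily means of 0.633, 14.1 and 2.07 CPM at Day0, Day1 and Day3 were all lower than its 31.7 CPM at course start. For SMN2 and PMF1, 97% and 53% of the 25-base words occur in other genes, so reads may be split with near-identical copies. All 12 kept their call in every one of the 23 alternatives that tested them.

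The 12 largest falls were TTBK1, VCAM1, SCN3A, EEF1A2, TAF7L, LMOD3, ACADL, PGAM4, PPFIA2, GRIA2, NTRK2 and HSPA6, at -4.58 to -3.14, and several are known from neurons. EEF1A2, an elongation factor of neurons and muscle, had 3.57 to 9.68 CPM at course start (median 6.52), against 94.7, 131 and 77.3 CPM at Day2. It was lower, at -3.96 ± 0.25 log2 units (adjusted p = 2.2e-06; -5.08 with offsets). NTRK2, the receptor for the neurotrophin BDNF, had 2.00 to 13.1 CPM at course start (median 6.09), against 64.9, 64.0 and 50.7 CPM at Day2, a difference of -3.36 ± 0.32 (adjusted p = 8.7e-06; -2.88 with offsets). TTBK1 (a tau kinase), SCN3A (a sodium channel subunit), PPFIA2 (a presynaptic scaffold) and GRIA2 (a glutamate receptor subunit) are also neuronal, while VCAM1 is an adhesion molecule, ACADL a mitochondrial dehydrogenase and TAF7L a testis transcription factor. HSPA6, a chaperone made under heat stress, had 14.4 to 101 CPM at course start (median 60.3), against 487, 512 and 323 CPM at Day2 (-3.14 ± 0.27, adjusted p = 6.2e-06; -3.65 with offsets). These 12 also kept their calls in every alternative that tested them. PGAM4 is a single-exon copy of PGAM1 that shares 67% of its 25-base words with other genes. Of 64 tested genes with 1 exon and at least 10% shared words, 8 were higher (12.5%) and 16 lower (25%), beside 10.8% lower of all genes.

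Nuclear genes of the respiratory chain were higher as a group. These genes encode the smaller subunits of the complexes that pass electrons to oxygen and make ATP in mitochondria. Of 24 tested, 17 were higher and none lower, beside 12.1% and 10.8% of all genes tested. The median log2 difference was 1.62. With offsets 16 were higher and the median was 1.32. NDUFS6, of complex I, had 159 to 201 CPM at course start (median 185), against 27.9, 43.2 and 40.6 CPM at Day2. It was 2.28 ± 0.17 log2 units higher (adjusted p = 3.9e-06; 1.93 with offsets). COX7A2, of complex IV, had 43.0 to 71.0 CPM at course start (median 61.8), against 10.4, 8.99 and 11.6 CPM at Day2 (2.53 ± 0.21, adjusted p = 5.8e-06; 2.64 with offsets). COX6C was 1.68 ± 0.17 higher (adjusted p = 1.2e-05; 1.85 with offsets), and ATP5I, of the ATP synthase, 2.34 ± 0.25 higher (adjusted p = 1.8e-05; 1.64 with offsets). None of these 4 overlapped between groups. Their transcripts are short, and the shortest bin of all genes had 22.5% higher; the part of length in this group's difference was not tested beyond the offsets.

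Ribosomal protein genes, which encode a complex of equal parts, were called in both directions. Of 30 tested, 5 were higher and 5 lower (median -0.30), beside 12.1% higher and 10.8% lower of all genes. With offsets 3 were higher and 9 lower (median -0.47). Called or not, 12 differences were above 0 and 18 below. Their summed level was 22619 to 30077 CPM at course start, against 30676 to 39845 CPM at Day2. RPL19 had 1412 to 2477 CPM at course start (median 1752), against 5541, 5902 and 4447 CPM at Day2, a difference of -1.51 ± 0.14 (adjusted p = 8.5e-06; -2.11 with offsets). RPS28 had 279 to 419 CPM at course start (median 362), against 91.8, 127 and 120 CPM at Day2. It was 1.63 ± 0.17 higher (adjusted p = 1.6e-05; 1.32 with offsets). Both were without overlap. RPL19 and RPS28, of one particle, thus differed in opposite directions between the preparations. As fitted, the counts called in the list were not far from the shares over all genes.

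Signalling targets downstream of FGF, Wnt, BMP and YAP gave calls in mixed directions over the 3 times together. Of all genes tested, 12.1% were higher and 10.8% lower. FGF acts through ERK to induce its own inhibitors, the SPRY and DUSP genes. Of 16 tested FGF-ERK targets, 4 were higher and none lower (median -0.03), and 2 were higher with offsets, only DUSP14 being in both counts. DUSP14 had 15.9 to 25 CPM at course start (median 18.4), against 6.49, 5.04 and 11.3 CPM at Day2 (1.35 ± 0.35, adjusted p = 0.0075; 1.35 with offsets). Of 15 Wnt targets, 1 was higher and 1 lower (median 0.53). The one was NOTUM, a secreted Wnt inhibitor with no count at Day2 and 1.57 to 4.28 CPM at course start, at least 8.23-fold higher against a floor of 3 counts over the Day2 group. AXIN2, a general readout of Wnt, had 52.8 to 81.0 CPM at course start (median 70.8), against 125, 54.3 and 99.0 CPM at Day2, and did not pass (-0.41 ± 0.21, adjusted p = 0.14; -0.50 with offsets).

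The ID genes, immediate targets of BMP, split. ID3 had 81.9 to 154 CPM at course start (median 109), against 42.5, 29.1 and 28.7 CPM at Day2, and was 1.70 ± 0.18 log2 units higher (adjusted p = 1.6e-05; 1.18 with offsets). ID2 had 13.4 to 26.8 CPM at course start (median 16.9), against 74.3, 87.8 and 53.3 CPM at Day2, and was lower, at -2.02 ± 0.23 (adjusted p = 2.5e-05; -2.23 with offsets). Neither overlapped, and in all 3 of 13 BMP and TGF-beta targets were higher and 2 lower (median 0.50). Among 11 targets of YAP, the effector of the Hippo pathway that responds to cell density and tension, none was higher and 3 were lower (median -0.27). CTGF, the best known of them, had 24.8 to 55.2 CPM at course start (median 47.3), against 102, 83.1 and 108 CPM at Day2. It was lower, at -1.25 ± 0.16 (adjusted p = 5.5e-05; -1.34 with offsets).

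Within the first 90 min, few genes differed. Among 30, 60 and 90 min, 30 of 11864 genes passed (0.253%, adjusted p under 0.05, edgeR with 2 libraries a time), of which 19 fell and 11 rose between 30 and 90 min. The count was 8 without the second library of 30 min, 14 without the first of 30 or of 90 min, 142 without the second of 60 min and 650 without the first of 60 min. For 15 of the 30 genes the Day2 mean lay between the means at 30 and 90 min, so that their place relative to Day2 depended on the time chosen.

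DUSP6, the phosphatase that switches off ERK, led this group. It had 402 and 368 CPM at 30 min, 200 and 147 CPM at 60 min and 30.5 and 40.9 CPM at 90 min, against 126, 132 and 142 CPM at Day2. It thus lay above every Day2 library at 30 min and below every one at 90 min, and its mean over the 3 times did not pass the test against Day2 (0.01 ± 0.14, adjusted p = 0.96; 0.23 with offsets). From 30 to 90 min it fell by 3.42 log2 units (adjusted p = 1.2e-07). SPRY4, an inhibitor of FGF receptor signalling, had 113 and 125 CPM at 30 min, 67.0 and 49.3 CPM at 60 min and 24.6 and 31.2 CPM at 90 min, against 94.7, 51.4 and 82.1 CPM at Day2 (-2.09 from 30 to 90 min, adjusted p = 0.00014). Its relative SPRY2 fell by 2.06 (adjusted p = 0.00014), with 71.0 and 72.8 CPM at 30 min and 18.2 and 16.2 CPM at 90 min, against 43.1, 35.3 and 38.8 CPM at Day2. Across the 16 FGF-ERK targets the median difference from Day2 was 0.62 at 30 min, 0.08 at 60 min and -0.57 at 90 min, and 5 of them passed the test among the 3 times, DUSP6, SPRY2, SPRY4, PHLDA1 and EPHA2, all of them lower at 90 min than at 30 min.

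EGR1, an immediate early factor, had 33.8 and 27.2 CPM at 30 min, 11.5 and 12.3 CPM at 60 min and 3.81 and 1.94 CPM at 90 min, against 15.2, 15.5 and 9.19 CPM at Day2. It fell by 3.42 log2 units from 30 to 90 min (adjusted p = 0.00032). Its promoter is printed because ERK is known to induce it through serum response factor, which binds CArG boxes. The 250 bases before its start are chr5:138465229-138465478 on the plus strand (RefSeq, GRCh38.p14), 5′ to 3′, with CArG boxes in capitals.
EGR1: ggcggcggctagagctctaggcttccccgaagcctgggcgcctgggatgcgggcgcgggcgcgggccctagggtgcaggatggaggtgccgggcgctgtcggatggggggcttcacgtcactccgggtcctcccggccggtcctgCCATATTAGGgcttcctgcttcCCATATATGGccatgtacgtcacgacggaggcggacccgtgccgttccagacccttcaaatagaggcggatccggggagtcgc
It holds 2 such boxes, 105 and 83 bases before the start, a motif found on either strand in 1.16% of 35116 promoters of this length. DUSP6, SPRY2 and SPRY4, which ERK is also known to induce, fell too, and the cause of these falls was not tested. Of the 19 tested immediate early genes, only EGR1 passed the test among the 3 times. With 2 libraries a time, a gene that did not pass may still have changed.

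The other falls among the 10 genes with the smallest p were in Wnt, TGF-beta and metabolic genes. SP5, a direct Wnt target, had 119 and 121 CPM at 30 min, 102 and 113 CPM at 60 min and 54.9 and 48.2 CPM at 90 min, against 55.5, 45.7 and 79.7 CPM at Day2 (-1.22 from 30 to 90 min, adjusted p = 0.0032). Its mean over the 3 times was above Day2 as fitted (0.53 ± 0.18, adjusted p = 0.030) and below it with offsets (-0.58, adjusted p = 0.019), under the fold limit both times. DKK1, a secreted Wnt inhibitor, fell by 1.51 (adjusted p = 0.0046), and its Day2 libraries of 179, 52.5 and 35.9 CPM spanned most of its course range of 53.4 to 207 CPM. ZNF503, PPP1R3C and TGIF1 fell by 1.33 to 2.37 log2 units. Without the second library of 30 min DKK1 and TGIF1 lost the call, without the first of 90 min TGIF1, without the first of 30 min PPP1R3C, and without the second of 90 min SP5, and the other 6 kept it in each case. DLL1 rose, with 110 and 128 CPM at 30 min, 128 and 138 CPM at 60 min and 226 and 212 CPM at 90 min (0.88 from 30 to 90 min, adjusted p = 0.016). Its gap to Day2 was widest at 90 min.

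**Figure D5:**
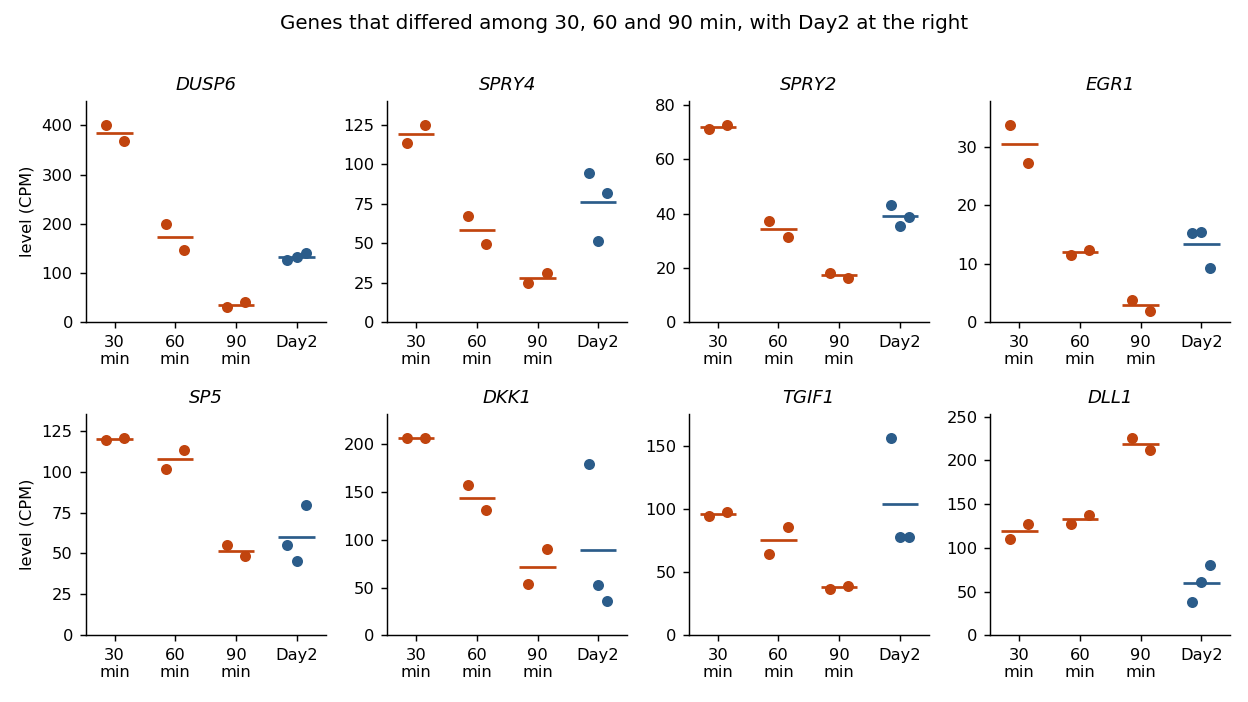
Level in CPM (y axis, from 0) of 8 genes that differed among 30, 60 and 90 min (red), with Day2 (blue) at the right; points are libraries and bars means. DUSP6, SPRY4, SPRY2 and EGR1 lie above the Day2 mean at 30 min and below it at 90 min, and DLL1 is above Day2 at every time.

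Structural and metabolic genes added further called genes, many of them sensitive to the offsets. Over all genes tested, 12.1% were higher and 10.8% lower. Of 22 genes of the extracellular matrix, 6 were higher and none lower (median 0.54), but only COL1A1 stayed called with offsets. COL1A1, a chain of type I collagen, had 140 to 192 CPM at course start (median 160), against 35.7, 50.7 and 67.9 CPM at Day2 (1.64 ± 0.20, adjusted p = 3.5e-05; 1.16 with offsets). Of 18 epithelial and mesenchymal genes, 7 were higher and 2 lower (median 0.35). KRT18, a keratin of simple epithelia, had 236 to 279 CPM at course start (median 247), against 55.5, 89.9 and 85.6 CPM at Day2 (1.71 ± 0.16, adjusted p = 7.4e-06; 1.25 with offsets), and its partner KRT8 was 1.39 ± 0.15 higher (adjusted p = 1.9e-05; 1.19 with offsets).

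Glycolysis and cell cycle genes had small median differences. The counts of called genes in these lists stand beside 12.1% higher and 10.8% lower of all genes tested. Of 19 glycolysis genes 1 was higher and 1 lower (median 0.04). The lower one, PGK1, had 645 to 930 CPM at course start (median 819), against 2532, 2340 and 1777 CPM at Day2 (-1.48 ± 0.13, adjusted p = 6.2e-06; -1.11 with offsets). Of 21 G1/S genes, 1 was higher and 1 lower (median 0.12), and 2 of 20 G2/M genes were higher (median 0.19). CCNE2, the cyclin of S phase entry, had 7.48 to 16.9 CPM at course start (median 9.86), against 46.1, 24.8 and 22.5 CPM at Day2 (-1.52 ± 0.31, adjusted p = 0.0019; -1.06 with offsets). Of 21 genes of cholesterol synthesis, 4 were higher and none lower (median 0.18), and 2 were higher with offsets. Of 14 heat shock genes, HSPA6 was the 1 lower and HSPA1B and HSPB1 were the 2 higher. With offsets HSPA1B and HSPB1 lost the call, HSPA1B also without the first Day2 library or the second of 60 min, and HSPB1 without the second Day2 library or any one course library.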

How the data were processed

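Libraries were grouped by their labels, and members and gene lists were chosen with earlier results of these data known. The authors deposited 2 tables of 19084 genes, one of expected counts (fractional estimates of reads) and one of TPM values. The aligner Bowtie 0.12.2 is named, with builds hg19 and mm8, per the submitters' processing notes; a counting program and annotation are not given in the sources used. The table of expected counts from the authors was rounded to whole numbers here and tested with edgeR 4.0.16 in R 4.3.3 (TMM factors, filterByExpr, quasi-likelihood F tests, Benjamini-Hochberg adjustment at 0.05). The fit held 4 group means (30, 60 and 90 min and Day2), and the contrast set the mean of the 3 times against Day2. A call also needed an absolute log2 difference of at least 1. CPM use TMM-scaled library sizes, and log2 CPM a prior count of 2. Deposited TPM values entered only as an alternative, as log2(TPM + 1) or log2(TPM + 0.1) in limma 3.58.1; DESeq2 1.42.0 was another. Transcript GC content, length and 25-base words shared with other genes came from GENCODE 29, matched by symbol for 99.4% of tested genes; the offsets subtract a lowess trend (span 0.3) per library. The SE of a log2 difference comes from the quasi-likelihood fit and covers the spread among replicate libraries, while floors cover counting error only. The fit was tested on simulated data.

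Named genes are the 12 largest rises and falls among called genes of at least 20 CPM in the higher group without overlap, up to 4 called members of each list with the smallest p, 13 stage markers, and the 10 genes with the smallest p among the 3 times at 10 CPM or more. Other members are named as examples of their list, chosen with their values in view, and a few genes that the rule names are not reported here. Replicate numbers are shared between groups, but the deviations of libraries with the same number correlated only at -0.0360 to 0.0574 across genes, so they were not treated as pairs. No replicate pair was a duplicate (the lowest chi-square of the counts divided by its degrees of freedom was 3.82).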

Additional observations from a re-analysis of the deposited data

Results flagged for a closer look

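In 14 of the genes named here the difference from Day2 depended on which course time was set against it, by the edgeR test among 30, 60 and 90 min over all genes (adjusted p under 0.05). Values are log2 at 90 min minus log2 at 30 min, with 2 libraries a time, and no explanation was weighed. The targets of FGF and ERK signalling were lower at 90 min, at -3.42 for DUSP6, -2.09 for SPRY4, -2.06 for SPRY2 and -0.88 for EPHA2, and the immediate early gene EGR1 was at -3.42. Of the Wnt genes, SP5 was at -1.22 and DKK1 at -1.51. ZNF503 was at -2.37, PPP1R3C at -1.49 and TGIF1 at -1.33. The mesodermal genes BMP4 and FOXC1 were at -1.39 and -1.05. Higher at 90 min were the Notch ligand DLL1, at 0.88, and the heat stress chaperone HSPA6, at 2.11.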

How the results depend on the processing

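Of 126 named genes 109 were called, and 73 of these kept their call in every one of the 23 alternatives that tested them. None of the 109 changed sign. Among all called genes, 10 of the 1468 higher and none of the 1317 lower had the opposite sign with offsets. Scaling by total counts left 858 lower genes. Dropping the fold limit gave 2455 higher and 2584 lower, and a log2 limit of 2 gave 463 and 387. limma gave 2366 and 801 on log2(TPM + 1), and 2388 and 807 on log2(TPM + 0.1). Genes differing among the times numbered 201 with no filter on low counts. The distance was 1.23 over genes of at least 5 CPM. Leaving out 1 library at a time gave 1197 to 1907 higher and 1093 to 1515 lower genes (both highest without the third Day2 library), 8 to 650 genes among the times and distances of 0.884 to 1.02. With a replicate block, counts were 1832 and 1439 (1521 and 1091 with GC and length offsets too) and 29 among the times; MSGN1 (1.01) and T (1.03) gained the call under the block, but the libraries share only the numbers. Causes of these shifts were not tested. Among the named genes, sign changes fell on genes near 0 or not called: MSGN1 (-0.74 with offsets, -0.14 without the first Day2 library), SPRY2 (0.0891 with the 6 course libraries as 1 group, 0.0659 by total counts, 0.0389 and 0.0336 in limma with pseudocounts of 1 and 0.1), EGR1 (0.21 as 1 group), DUSP6 (-0.0207 with RLE factors, -0.00859 at 10 CPM or more in 3 libraries, -0.0205 in DESeq2, -0.0569 to 0.0931 over left-out libraries), PPP1R3C (-0.0913 to 0.44 over left-out libraries), ZNF503 (-0.48 with offsets) and SP5 (-0.58 with offsets). MSGN1 reached 0.97 without the third Day2 library. The 2 experiments and the 2 groups coincide, and depths of 3.16 to 6.42 M counts limit genes under about 1 CPM.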
